A study of Arabidopsis thaliana with 12 samples.

Results

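Of the 25665 loci named on the array, 5 belong to the organelle genomes of Arabidopsis thaliana. They were chosen by their locus codes, ATCG for the chloroplast and ATMG for the mitochondrion. The chloroplast genome is represented by 1 locus, ATCG01000, and the mitochondrial genome by 4 loci, ATMG00285, ATMG00300, ATMG00516 and ATMG00580. Each had 1 probe printed in 1 spot, and no such spot was saturated or marked as an outlier on any of the 12 arrays. The codes are used as the array gives them, since 0 of the 5 matched the RefSeq gene table that was used for names. With 5 loci, the values below describe single transcripts and not the output of either organelle.

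Chloroplasts and mitochondria keep small genomes of their own, which encode core subunits of photosynthetic and respiratory complexes and parts of the organelle gene expression machinery, while most organelle proteins are encoded in the nucleus and imported. Chloroplast genes are transcribed by a bacterial-type polymerase, which needs nuclear-encoded sigma factors, and by phage-type polymerases from the nucleus, while plant mitochondria use phage-type polymerases alone. Stable organelle RNAs mostly lack the long poly(A) tails of nuclear mRNAs, and a tail on an organelle RNA usually marks it for decay. The labelling kit named in the labels normally primes on poly(A), so the signals are of RNA that the kit could label and may not follow total organelle RNA, which was not tested.

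RNA came from whole seedlings of accession Columbia-0, 3 weeks old, of the lines 35S:MYB106SRDX, 35S:WIN1SRDX and wild type (WT), with 4 arrays of each. MYB106 is a MYB transcription factor known from trichome and epidermis development, WIN1 belongs to the AP2/ERF factors and is known from the making of the cuticle, and SRDX is a short repression domain that turns an activator into a repressor. The 35S promoter drives both fusions in most tissues, so the lines are not models of a change in the epidermis alone. All plants grew on MS agar with 1% sucrose at 23 °C under 16 h of light and 8 h of darkness, and several seedlings of a plate made up a sample. The labels name no separate cultures for the replicates, so the p-values measure only how far these samples scatter, and that scatter may be technical. In whole seedlings, fewer cells of a type and less RNA per cell cannot be told apart.

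Signals are given as the log2 of the processed intensity minus the log2 of the 75th percentile of the array, so that 0 marks a spot as bright as that percentile. Between 59.3% and 64.2% of the spots of an array were well above background. The median spot intensity was 67.3 to 85.6 on MYB106SRDX arrays, 90.1 to 142 on WIN1SRDX arrays and 127 to 144 on WT arrays. The lines carried the transcripts they are named for: MYB106 averaged 4.17 ± 0.94 in MYB106SRDX, -3.89 ± 0.89 in WIN1SRDX and -2.29 ± 0.65 in WT (log2 signal, SD, n = 4 each). WIN1, which RefSeq lists as SHN1, averaged 5.60 ± 0.20 in WIN1SRDX and was well above background on 1 of 4 MYB106SRDX arrays and 2 of 4 WT arrays. The arrays lay on 3 slides, each with all 3 groups: MYB106SRDX 1, WIN1SRDX 1, WT 1 and WT 2 shared slide 1, MYB106SRDX 2 and 3, WIN1SRDX 2 and WT 3 shared slide 2, and MYB106SRDX 4, WIN1SRDX 3 and 4 and WT 4 shared slide 3.

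**Figure D1:**
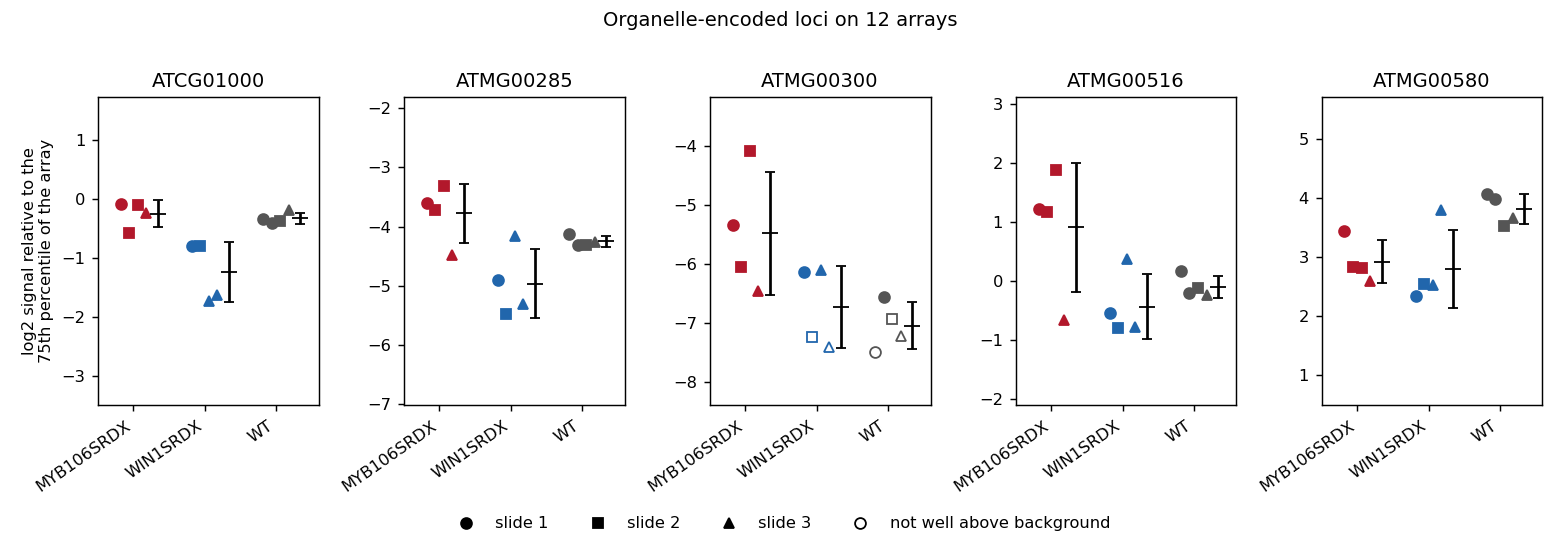
Log2 signal of the 5 organelle-encoded loci on each of the 12 arrays, minus that of the 75th percentile spot (vertical axes, all spanning the same number of log2 units), for MYB106SRDX, WIN1SRDX and WT (4 arrays each, symbols by slide, open symbols not well above background). Black bars give the mean ± SD; ATCG01000 lay lower on all 4 WIN1SRDX arrays, and ATMG00580 lay highest on the 4 WT arrays apart from WIN1SRDX replicate 4.

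The chloroplast locus ATCG01000 was lower in WIN1SRDX than in the other groups. Its log2 signals were -0.08, -0.57, -0.11 and -0.23 on MYB106SRDX replicates 1 to 4, -0.79, -0.79, -1.72 and -1.63 on WIN1SRDX, and -0.33, -0.41, -0.38 and -0.19 on WT. All WIN1SRDX arrays lay below all arrays of both other groups, while the MYB106SRDX and WT arrays overlapped. Within WIN1SRDX, replicates 3 and 4, both on slide 3, were the lowest.

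In the limma fit of all 3 groups, ATCG01000 fell by 0.90 in WIN1SRDX against WT (log2, SE 0.22, adjusted p = 0.0107). Within slides 1, 2 and 3 this difference was -0.42, -0.41 and -1.48, so it was negative on each slide and largest on slide 3. The locus was higher in MYB106SRDX than in WIN1SRDX by 0.99 ± 0.22 (SE, adjusted p = 0.00491), and the within-slide differences were 0.71, 0.45 and 1.45. Both calls were kept when any 1 array was left out. The difference of MYB106SRDX from WT was 0.08 ± 0.22 (SE, adjusted p = 0.780), with a 95% interval of -0.41 to 0.57. Summed over the 26 listed nuclear genes with a value on every array, of photosystem I, photosystem II, the chloroplast ATP synthase and the Rubisco small subunit, the signal ranged from 1347 to 1911 times the 75th percentile on MYB106SRDX arrays, 1404 to 1774 on WIN1SRDX arrays and 1783 to 1960 on WT arrays, and all 26 genes were well above background on every array. Its part in the difference of ATCG01000 was not tested.

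Among the mitochondrial loci, ATMG00516 showed its highest signals in MYB106SRDX and was also the most uneven there. Its log2 signals were 1.22, 1.17, 1.88 and -0.65 on MYB106SRDX replicates 1 to 4, -0.55, -0.79, 0.37 and -0.78 on WIN1SRDX, and 0.16, -0.20, -0.11 and -0.24 on WT. MYB106SRDX replicates 1 to 3 lay above every WIN1SRDX and WT array, and replicate 4 lay below every WT array, so that MYB106SRDX overlapped both other groups. The SD was 1.09 in MYB106SRDX, 0.55 in WIN1SRDX and 0.18 in WT, and 89.1%, 77.2% and 64.0% of the tested loci had a smaller SD in those groups.

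In MYB106SRDX against WIN1SRDX, ATMG00516 was higher by 1.34 ± 0.46 (log2, SE, adjusted p = 0.0377). With only these 2 groups in the limma fit, the adjusted p was 0.0961. The difference turned negative on slide 3, and the call was mostly lost with fewer arrays: the within-slide differences were 1.77, 2.32 and -0.45, the slide as a block gave 1.2 with adjusted p = 0.0828, and leaving out any 1 array other than MYB106SRDX replicate 4 or WIN1SRDX replicate 3 gave adjusted p between 0.0505 and 0.100. In MYB106SRDX against WT the difference was 1.00 ± 0.46 (SE, adjusted p = 0.0916), and without MYB106SRDX replicate 4 it was 1.52 with adjusted p = 0.00204. The slides split in the same way, with 1.24, 1.64 and -0.41 in MYB106SRDX against WT within slides 1, 2 and 3. In WIN1SRDX against WT the difference was -0.34 ± 0.46 (SE, adjusted p = 0.604).

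ATMG00285 averaged highest in MYB106SRDX and lowest in WIN1SRDX. Its log2 signals were -3.60, -3.71, -3.32 and -4.47 on MYB106SRDX replicates 1 to 4, -4.90, -5.48, -4.16 and -5.30 on WIN1SRDX, and -4.12, -4.31, -4.31 and -4.26 on WT. The WT arrays lay within 0.19 of each other, between MYB106SRDX replicates 1 to 3 above and WIN1SRDX replicates 1, 2 and 4 below. MYB106SRDX replicate 4 and WIN1SRDX replicate 3 crossed to the far side of WT or into its range, and the groups overlapped.

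ATMG00285 was higher in MYB106SRDX than in WIN1SRDX by 1.18 ± 0.30 (log2, SE, adjusted p = 0.00839). This difference was positive within slides 1, 2 and 3, at 1.30, 1.97 and 0.26, and passed whichever 1 array was left out. Against WT, the differences were 0.47 ± 0.30 in MYB106SRDX (SE, adjusted p = 0.202) and -0.71 ± 0.30 in WIN1SRDX (SE, adjusted p = 0.0887), neither of which passed. With quantile normalization the difference of MYB106SRDX from WT was 0.94 and passed (adjusted p = 0.0142), and with normexp it was 0.51 and passed (adjusted p = 0.0323). Normexp also gave -0.23 in WIN1SRDX against WT (adjusted p = 0.341) and 0.73 in MYB106SRDX against WIN1SRDX (adjusted p = 0.00661). Without WIN1SRDX replicate 3, the difference of WIN1SRDX from WT was -0.98 with adjusted p = 0.0172.

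ATMG00300 was close to the background of the arrays. It was well above background on all 4 MYB106SRDX arrays, on 2 of 4 WIN1SRDX arrays and on 1 of 4 WT arrays. Its processed intensities were 40.6, 26.6, 103 and 21.3 on MYB106SRDX replicates 1 to 4, 24.4, 10.4, 30.9 and 10.9 on WIN1SRDX, and 12, 21.2, 16.7 and 15.3 on WT. On the scaled log2 axis these were -5.33, -6.05, -4.08 and -6.45 in MYB106SRDX, -6.14, -7.24, -6.10 and -7.40 in WIN1SRDX, and -7.48, -6.55, -6.92 and -7.22 in WT. All MYB106SRDX arrays lay above all WT arrays, though MYB106SRDX replicate 4 and WT replicate 2 were close, and the WIN1SRDX arrays overlapped both.

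The fitted difference of ATMG00300 in MYB106SRDX against WT was 1.57 ± 0.49 (log2, SE, adjusted p = 0.0209). Its size is not settled, since 3 of 4 WT arrays were not well above background, and with normexp background correction it was 0.82 (adjusted p = 0.00718). The within-slide differences were 1.69, 1.86 and 0.77. Leaving out WT replicate 1 gave 1.42 with adjusted p = 0.0570, and leaving out WT replicate 4 gave 1.51 with adjusted p = 0.0501. The locus passed the filter on dim signals through MYB106SRDX alone, so a higher signal in that group was favoured by the filter and the call is not support for a rise. In MYB106SRDX against WIN1SRDX the difference was 1.24 ± 0.49 (SE, adjusted p = 0.0637), and 0.78 at the least and 1.57 at the most when 1 array was left out, with adjusted p = 0.0282 without MYB106SRDX replicate 4. It passed with normexp (0.67, adjusted p = 0.0256) and quantile normalization (1.64, adjusted p = 0.0230). In WIN1SRDX against WT it was 0.32 ± 0.49 (SE, adjusted p = 0.644).

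ATMG00580 was lower in both lines than in WT. Its log2 signals were 3.44, 2.83, 2.81 and 2.59 on MYB106SRDX replicates 1 to 4, 2.34, 2.54, 2.52 and 3.78 on WIN1SRDX, and 4.06, 3.97, 3.53 and 3.65 on WT. All MYB106SRDX arrays and WIN1SRDX replicates 1 to 3 lay below all WT arrays, and WIN1SRDX replicate 4 lay among them.

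ATMG00580 fell by 0.88 in MYB106SRDX against WT (log2, SE 0.31, adjusted p = 0.0315) and by 1.01 in WIN1SRDX against WT (SE 0.31, adjusted p = 0.0276). The differences were negative within each slide, at -0.58, -0.70 and -1.06 for MYB106SRDX and -1.68, -0.98 and -0.50 for WIN1SRDX. Both calls lay near the threshold: with the slide as a block they were -0.80 (adjusted p = 0.0732) and -0.99 (adjusted p = 0.0535). For MYB106SRDX, leaving out 1 of MYB106SRDX replicates 2, 3 and 4 or WT replicates 1 and 2 gave adjusted p between 0.0599 and 0.0805. For WIN1SRDX, leaving out 1 of WIN1SRDX replicates 1, 2 and 3 or WT replicates 1 and 2 gave adjusted p between 0.0646 and 0.0771, and without WIN1SRDX replicate 4 the difference was -1.34. Between MYB106SRDX and WIN1SRDX the difference was 0.12 ± 0.31 (SE, adjusted p = 0.768), with a 95% interval of -0.55 to 0.80.

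**Figure D2:**
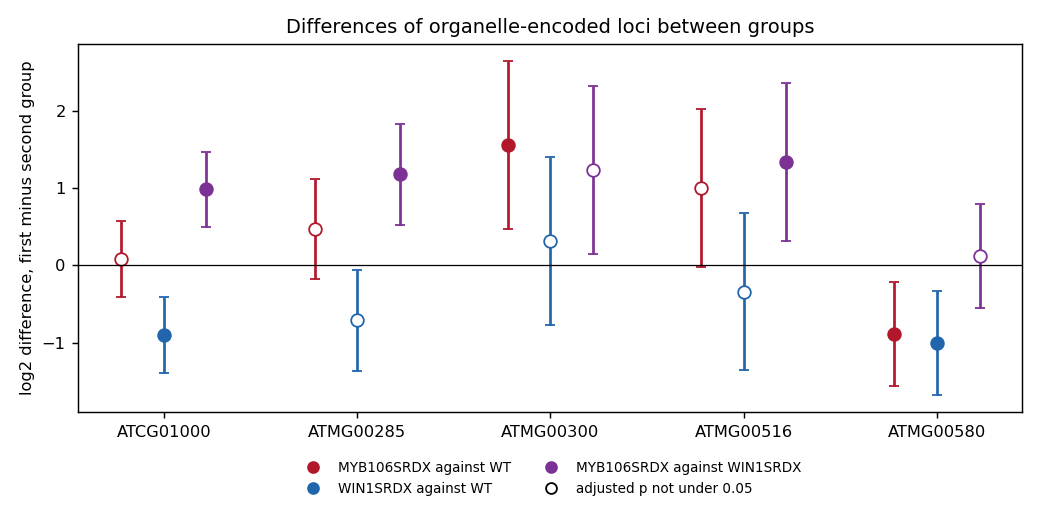
Log2 difference, first minus second group, of each organelle-encoded locus in the 3 comparisons of the single limma fit (vertical axis), with 95% intervals as bars and filled symbols for adjusted p under 0.05. ATCG01000 and ATMG00580 were below 0 in WIN1SRDX against WT, ATMG00300 was above 0 and ATMG00580 below 0 in MYB106SRDX against WT, and ATCG01000, ATMG00285 and ATMG00516 were above 0 in MYB106SRDX against WIN1SRDX.

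The counts of organelle loci that passed are set beside the share of all tested loci. In MYB106SRDX against WT, 2 of 4 mitochondrial loci passed, 1 higher and 1 lower, and 0 of 1 chloroplast loci passed, where 52.2% of the 20267 tested loci passed, 23.6% higher and 28.6% lower. The higher locus was ATMG00300, tested only through its signal in MYB106SRDX. Among loci well above background on all 12 arrays, which leaves out ATMG00300, 1 mitochondrial locus passed, lower, and 0 higher. Of the 17796 loci tested in that setting, 4445 passed higher and 4430 lower. In WIN1SRDX against WT, 1 of 4 mitochondrial loci and 1 of 1 chloroplast loci passed, both lower, where 32.6% of tested loci passed, 17.4% higher and 15.2% lower. In MYB106SRDX against WIN1SRDX, 2 of 4 mitochondrial loci and 1 of 1 chloroplast loci passed, all higher, where 42.6% of tested loci passed, 18.3% higher and 24.2% lower. Both comparisons with WT use the same 4 WT arrays.

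Arrays of the groups did not overlap for ATMG00300 and ATMG00580 in MYB106SRDX against WT, where this held for 52.7% of tested loci. For ATMG00300 the nearest arrays were at intensities of 21.3 in MYB106SRDX and 21.2 in WT, and 3 of 4 WT arrays were not well above background. The groups did not overlap for ATCG01000 in WIN1SRDX against WT, where this held for 43% of tested loci. Nor did they for ATCG01000 in MYB106SRDX against WIN1SRDX, where this held for 34.7% of tested loci. The median log2 difference of the 4 mitochondrial loci was 0.74, -0.52 and 1.21 in the same order of comparisons, and that of all tested loci was -0.05, 0.00 and -0.03. Without MYB106SRDX replicate 4, the median in MYB106SRDX against WT was 1.11. With normexp background correction the medians were 0.66, -0.27 and 0.70, and under median scaling they were 1.28, -0.48 and 1.71. Over the loci well above background on all 12 arrays, which leaves out ATMG00300, the medians were 0.47, -0.71 and 1.18.

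The scaling of the arrays bears on MYB106SRDX in particular. Scaling to the median of each array, in place of the 75th percentile, moved the median of all tested loci to 0.48 in MYB106SRDX against WT and to 0.46 in MYB106SRDX against WIN1SRDX. The share of all calls that were higher was then 75.9% and 77.1%, against 45.2% and 43.1% with the 75th percentile. Under median scaling the differences of MYB106SRDX from WT were 0.62 for ATCG01000 (adjusted p = 0.0447), 1.01 for ATMG00285 (adjusted p = 0.0104), 1.54 for ATMG00516 (adjusted p = 0.0130) and -0.35 for ATMG00580 (adjusted p = 0.325). Relative to the median of all tested loci, ATCG01000 was at 0.14, ATMG00580 at -0.83 and ATMG00516 at 1.06 in MYB106SRDX against WT under both scalings. Both scalings shift all loci of an array alike, so these relative values are the same by construction and test nothing. With the authors' own scaling, 66.5% of calls were higher in WIN1SRDX against WT and 25.6% in MYB106SRDX against WIN1SRDX, against 53.4% and 43.1%.

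Markers of roots also differed between the groups. Of 13 root markers, 0 rose and 10 fell in MYB106SRDX against WT, 7 rose and 1 fell in WIN1SRDX against WT, and 0 rose and 13 fell in MYB106SRDX against WIN1SRDX. Of all tested loci, 23.6% rose and 28.6% fell, 17.4% rose and 15.2% fell, and 18.3% rose and 24.2% fell in these comparisons. The median log2 difference of the 13 was -4.14, 1.04 and -5.22 in the same order. The summed signal of the root markers was 14.4 to 39.0 times the 75th percentile on MYB106SRDX arrays, 40.0 to 65.9 on WIN1SRDX arrays and 34.4 to 36.9 on WT arrays. This sum is linear, so the brightest markers weigh most in it, and it does not measure root content. In MYB106SRDX, 5 of the 13, COBL9, EXPA18, PRP1, TIP2;3 and RHS19, were not well above background on any array, and in WIN1SRDX and WT 0 of 13. Their part in the organelle results was not tested.

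Within the groups, ATMG00285 and ATMG00516 went up and down on the same arrays. The deviations of their 12 signals from the group means had a Pearson's r of 0.907 (exact permutation p = 0.000796, two-sided, within groups) and a Spearman's rho of 0.923 (exact permutation p = 0.00275). Over the 15 relations computed, among the 5 loci and the chromosome 2 median described further on, the adjusted p-values were 0.0119 and 0.0412. Without the 2 arrays farthest from the median, MYB106SRDX replicate 4 and WIN1SRDX replicate 3, r was 0.894. The same array was the highest for both loci in 3 of 3 groups and the lowest in 2. The points share the array, its labelling and its scaling factor, and a slide holds only 4 arrays of 3 groups, too few for values within slides.

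ATMG00300 had r of 0.740 with ATMG00285 (exact permutation p = 0.0375, adjusted p = 0.112) and 0.716 with ATMG00516 (exact permutation p = 0.0877, adjusted p = 0.219), neither of which passed, and the adjusted p-value by Spearman's rho was 0.127 for both. By Pearson's r, the adjusted p-values of ATMG00580 and ATCG01000 with every other locus were 0.840 or above. WIN1SRDX replicate 4, where ATMG00580 was far above the rest of its group, was among the lower arrays of that group for ATMG00285, ATMG00300 and ATMG00516.

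**Figure D3:**
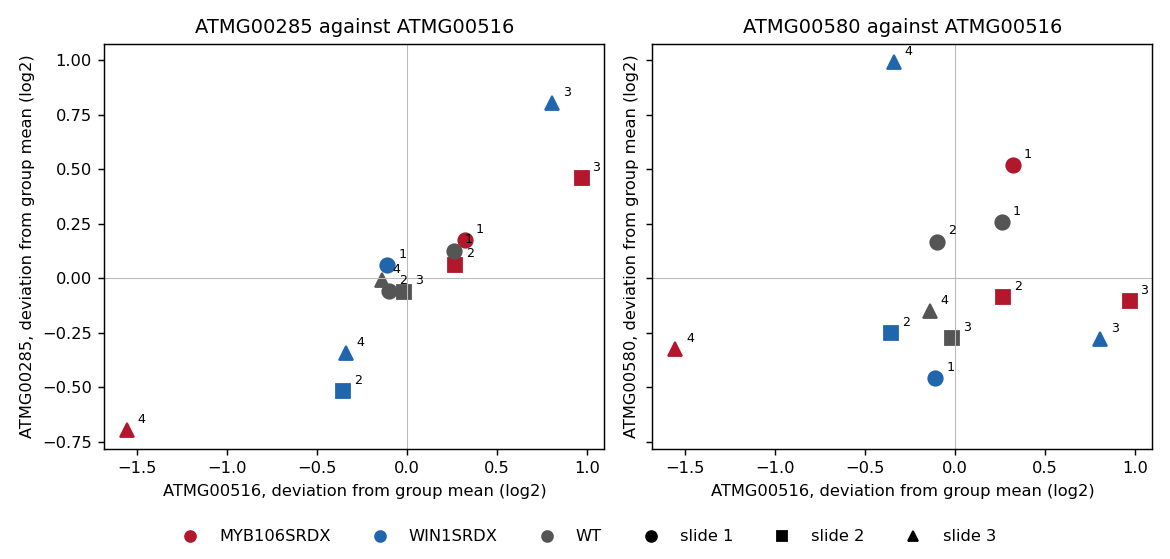
Deviation of each of the 12 arrays from its group mean, in log2 units, for ATMG00285 (left) and ATMG00580 (right) against ATMG00516 (horizontal axes), coloured by group, with symbols by slide and replicate numbers beside them. In the left panel the arrays line up from MYB106SRDX replicate 4 to MYB106SRDX and WIN1SRDX replicates 3 (r = 0.907), and in the right panel they do not.

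The nuclear genome of Columbia-0 carries a long copy of the mitochondrial genome near the centromere of chromosome 2. Whether the mitochondrial probes also pick up RNA from this copy was not tested. Nor was it tested whether probes for loci of the copy pick up mitochondrial RNA, so the values of both sets may not be independent. Nuclear loci of that neighbourhood, those between AT2G07660 and ABCC13 in the RefSeq order, were therefore set beside the mitochondrial loci. This list was chosen after the values were seen. Of its 46 loci on the array, 39 were tested. In MYB106SRDX against WIN1SRDX, 21 rose and 0 fell, with a median log2 difference of 0.97. In MYB106SRDX against WT, 11 rose and 2 fell, with a median of 0.46, and in WIN1SRDX against WT, 0 rose and 7 fell, with a median of -0.47. Of all tested loci, 18.3% rose and 24.2% fell in MYB106SRDX against WIN1SRDX. The shares were 23.6% and 28.6% in MYB106SRDX against WT, and 17.4% and 15.2% in WIN1SRDX against WT.

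**Figure D4:**
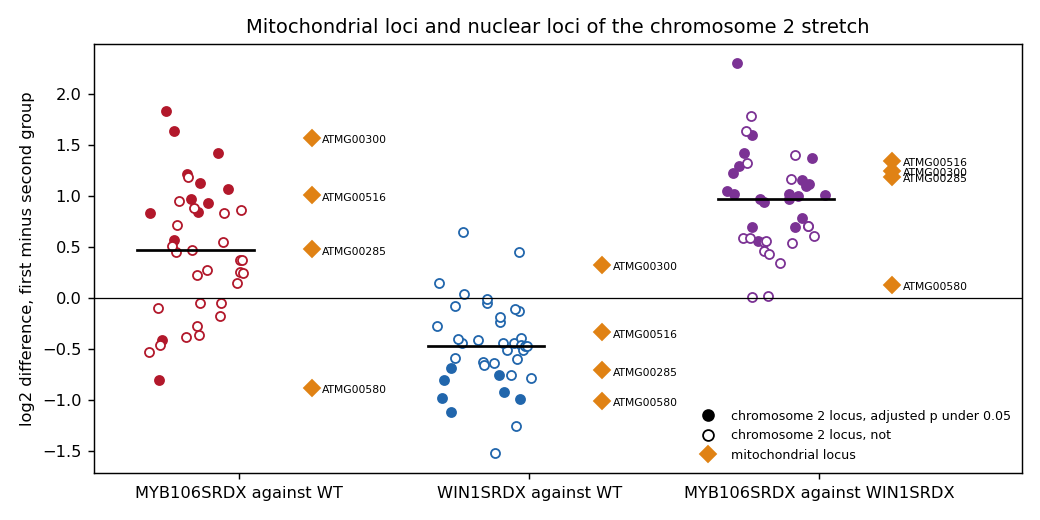
Log2 difference, first minus second group, of the 39 tested nuclear loci of the chromosome 2 stretch (circles, filled where adjusted p was under 0.05, black line at the median) and of the 4 mitochondrial loci (orange diamonds) in each comparison. The medians of the chromosome 2 loci were 0.46, -0.47 and 0.97.

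The chromosome 2 loci were uneven between arrays as well. Their median log2 signal per array was -1.93, -2.63, -1.76 and -3.03 on MYB106SRDX replicates 1 to 4, -2.80, -3.71, -2.94 and -3.27 on WIN1SRDX, and -2.65, -2.96, -3.13 and -3.20 on WT. As for ATMG00516, MYB106SRDX replicate 3 was the highest array of its group and replicate 4 the lowest. Without MYB106SRDX replicate 4, 15 rose and 1 fell in MYB106SRDX against WT, and without replicate 3, 8 rose and 3 fell. Leaving out WT replicate 1 or WT replicate 2 left 7 rises in that comparison, and leaving out WT replicate 2 left 4 falls in WIN1SRDX against WT. In MYB106SRDX against WIN1SRDX, between 13 (without MYB106SRDX replicate 1 or WIN1SRDX replicate 2) and 26 (without MYB106SRDX replicate 4) rose and 0 fell when 1 array was left out, and 16 rose and 0 fell with the slide as a block. Within groups the median of the chromosome 2 loci had r of 0.780 with ATMG00285 (exact permutation p = 0.00919, adjusted p = 0.0470), and 0.798 without MYB106SRDX replicate 4 and WIN1SRDX replicate 3. With ATMG00516, r was 0.776 (exact permutation p = 0.00940, adjusted p = 0.0470) and 0.520 without its 2 farthest arrays, MYB106SRDX replicates 3 and 4. By Spearman's rho, 0.755 and 0.699, the adjusted p-values were 0.0618 and 0.0756, and neither passed. With ATMG00580, r was 0.201 (exact permutation p = 0.573). The list was chosen after the values were seen, and its probes may pick up mitochondrial RNA, so these p-values are not independent support.

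Of 87 nuclear genes listed for organelle transcription, RNA processing, photosynthesis and respiration, 84 were tested. In MYB106SRDX against WT, 23 rose and 13 fell, in WIN1SRDX against WT 23 rose and 9 fell, and in MYB106SRDX against WIN1SRDX 10 rose and 10 fell. Over all tested loci, 23.6% rose and 28.6% fell in MYB106SRDX against WT, 17.4% rose and 15.2% fell in WIN1SRDX against WT, and 18.3% rose and 24.2% fell in MYB106SRDX against WIN1SRDX. Sigma factors and phage-type organelle polymerases accounted for 5 rises and 0 falls among 9 genes in MYB106SRDX against WT, with a median log2 difference of 0.50. SCA3, a gene of a phage-type polymerase of the chloroplast, rose by 1.03 ± 0.12 there (SE, adjusted p = 7.07e-05) and by 0.61 ± 0.12 in MYB106SRDX against WIN1SRDX (SE, adjusted p = 0.00282). It also rose in WIN1SRDX against WT, by 0.42 ± 0.12 (SE, adjusted p = 0.0231). In WIN1SRDX against WT, where the chloroplast locus fell, 4 of the 9 rose and 0 fell, but leaving out 1 of WIN1SRDX replicates 1 and 2 or WT replicates 1, 3 and 4 left 1 rise.

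Alternative oxidases and alternative NAD(P)H dehydrogenases are nuclear-encoded mitochondrial enzymes that bypass steps of the respiratory chain. In MYB106SRDX against WT, 6 of 8 rose and 1 fell, where 23.6% of all tested loci rose and 28.6% fell. There AOX1D was higher by 7.27 ± 0.51 (log2, SE, adjusted p = 2.59e-06) and the dehydrogenase gene NDA2 by 1.58 ± 0.19 (SE, adjusted p = 7.48e-05). In WIN1SRDX against WT, 4 of 8 rose and 0 fell, where 17.4% of all tested loci rose and 15.2% fell. There AOX1D was higher by 4.33 ± 0.51 (SE, adjusted p = 0.000237) and NDA2 by 0.79 ± 0.19 (SE, adjusted p = 0.00977). Between the lines, with MYB106SRDX against WIN1SRDX, 3 rose and 1 fell, where 18.3% of all tested loci rose and 24.2% fell. There AOX1A was higher by 1.92 ± 0.33 (SE, adjusted p = 0.00106), AOX1D by 2.93 ± 0.51 (SE, adjusted p = 0.00115) and NDA2 by 0.79 ± 0.19 (SE, adjusted p = 0.00698). AOX1A was also higher in MYB106SRDX against WT, by 2.53 ± 0.33 (SE, adjusted p = 0.000123). Its 0.61 ± 0.33 in WIN1SRDX against WT did not pass (SE, adjusted p = 0.179). Of 17 nuclear subunits of the respiratory chain, 7 rose and 1 fell in MYB106SRDX against WT, and 10 rose and 1 fell in WIN1SRDX against WT, where 23.6% and 17.4% of all tested loci rose. Of the 17, 1 rose and 7 fell in MYB106SRDX against WIN1SRDX, with a median log2 difference of -0.28. There 18.3% of all tested loci rose and 24.2% fell. With MYB106SRDX against WT, 3 of these 17 subunits rose with the scaling of the authors and 16 under median scaling. Over all tested loci, 3631 of 20268 rose with the scaling of the authors and 9892 of 20267 under median scaling. RefSeq gives no symbol for the listed loci AT3G15640 and AT5G08680, and both rose in each line against WT. In WIN1SRDX, AT3G15640 rose by 1.25 ± 0.14 (SE, adjusted p = 0.000145). The rise of AT5G08680 in that line was 0.79 ± 0.11 (SE, adjusted p = 0.000588). In MYB106SRDX the differences from WT were 0.92 for AT3G15640 and 0.37 for AT5G08680, and both passed.

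Nuclear subunits of photosystem I fell in 8 of 12 cases in MYB106SRDX against WT (median log2 difference -0.73) and in 4 of 12 in WIN1SRDX against WT (median -0.38), and 0 rose in either. Of all tested loci, 28.6% fell in MYB106SRDX against WT and 15.2% in WIN1SRDX against WT. Of 9 nuclear subunits of photosystem II, 2 fell in MYB106SRDX and 1 in WIN1SRDX against WT, no more than those shares, and 0 rose, with 1 to 6 falls in MYB106SRDX when 1 array was left out (6 without MYB106SRDX replicate 1). Under median scaling, 2 photosystem I subunits fell and 1 rose in MYB106SRDX against WT, with a median of -0.19, which is -0.68 relative to all tested loci. Under that scaling all 9 sigma factors and polymerases rose in MYB106SRDX against WT, where 9892 of 20267 tested loci rose and 3141 fell.

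**Figure D5:**
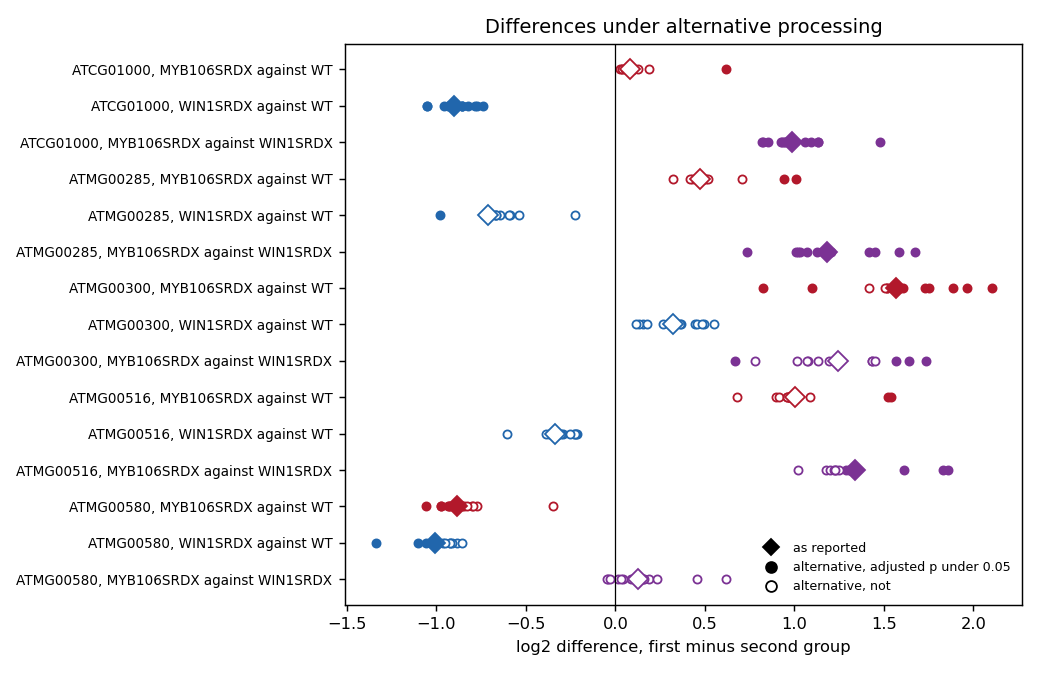
Log2 difference, first minus second group (horizontal axis), of each organelle-encoded locus in each comparison as reported (diamonds) and under the alternative settings (circles), filled where adjusted p was under 0.05. ATCG01000 in WIN1SRDX against WT, ATCG01000 in MYB106SRDX against WIN1SRDX and ATMG00285 in MYB106SRDX against WIN1SRDX stayed filled under all 23 alternatives.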

How the data were processed

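RNA of 12 seedling samples was hybridised to 1-colour Agilent arrays after Cy3 labelling of 1 µg of total RNA, per the labels' protocols. The deposited scanner files hold spot intensities that Agilent Feature Extraction 9.1.3.1 had corrected for background, per the file headers. In the value table, which serves as an alternative here, the authors give each probe as a ratio of that intensity to a constant, 1083 for MYB106SRDX, 996 for WIN1SRDX and 1264 for WT: this was found by setting the table against the scanner files (100% of probes within 1%). Its column medians were 0.0598 to 0.0758 for MYB106SRDX, 0.0867 to 0.137 for WIN1SRDX and 0.0966 to 0.109 for WT, it is linear and not centred, and no source used here gives the reason for the constants.

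From the processed intensity, log2 values were taken over 37685 non-control spots and the 75th percentile of each array was subtracted. Outlier-marked spots were dropped, and for loci with several probes the brightest was used. The test covered loci with a signal well above background on the 4 arrays of 1 group or more: 20267 of 25665 loci, all 5 organelle loci among them (1 locus had no value in a whole group and was dropped). All 3 groups entered 1 fit in limma 3.58.1 (R 4.3.3; lmFit and eBayes, 9 residual degrees of freedom) with Benjamini-Hochberg adjustment over the tested loci of a comparison, and "passed" means adjusted p under 0.05. The method was tested on simulated data. Relations between loci used exact permutation of array labels within groups (13824 arrangements). The precision is limited by 4 arrays a group. The fit takes 1 spread per locus over all groups. The median SD of a tested locus was 0.31 in MYB106SRDX, 0.28 in WIN1SRDX and 0.14 in WT. No 2 arrays held identical values.

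Nuclear lists follow general knowledge of gene function, and of them the 3 genes with the lowest p in each comparison are named. All 5 organelle loci passed in at least 1 comparison and are named for that. The groups of loci and the lists were chosen with earlier results of these data known. Names of nuclear genes come from RefSeq (assembly TAIR10.1). Alternatives changed background correction, scaling, the filter, marked spots, the choice of probe, the groups in the fit, slide and replicate blocks, and left out each array.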

Additional observations from a re-analysis of the deposited data

Results flagged for a closer look

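ATMG00580 in WIN1SRDX replicate 4 had a log2 signal of 3.78, against 2.34, 2.54 and 2.52 in replicates 1 to 3 of that group. Its gap to the nearest of them exceeded the critical value of Dixon's test for 4 samples. Among the 15 sets of 4 arrays examined (5 loci in 3 groups) this was the 1 case, and chance gives about 1 in 20. On the same array ATCG01000, ATMG00285, ATMG00300 and ATMG00516 did not stand apart by that test. WIN1SRDX replicate 4 shares slide 3 with WIN1SRDX replicate 3, MYB106SRDX replicate 4 and WT replicate 4.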

How the results depend on the processing

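Each of the 15 differences (5 loci in 3 comparisons) was recomputed under up to 23 alternatives, of which 12 left out 1 array each; ATMG00300 was not tested in 1 or 2 of them. No difference that passed changed direction. The difference of ATMG00580 in MYB106SRDX against WIN1SRDX, which did not pass, was -0.0414 with the scaling of the authors, and it ranged from -0.0481 (without MYB106SRDX replicate 1) to 0.455 (without WIN1SRDX replicate 4) when 1 array was left out. In 13 alternatives the call of ATMG00516 in MYB106SRDX against WIN1SRDX was lost, and in 8 each those of ATMG00580 against WT.

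The numbers of mitochondrial loci that passed in MYB106SRDX against WT, WIN1SRDX against WT and MYB106SRDX against WIN1SRDX (2, 1 and 2) became 1, 0 and 1 with the slide as a block. With the scaling of the authors, 0 passed in WIN1SRDX against WT and 1 in MYB106SRDX against WIN1SRDX. Restricting the test to loci above background on all 12 arrays, which leaves out ATMG00300, gave 1 in MYB106SRDX against WT, and fitting only the 2 groups compared gave 1 in MYB106SRDX against WIN1SRDX. Without 1 array the numbers ranged from 0 to 2, from 0 to 1 and from 1 to 3. Under median scaling 1 chloroplast locus passed in MYB106SRDX against WT, at 0.62, and the chloroplast difference in MYB106SRDX against WIN1SRDX was 1.48. Relative to the median of all loci these were 0.14 and 1.02 under both scalings, which is so by construction. Quantile normalization, median scaling and normexp each gave 3, 1 and 3 mitochondrial loci. In MYB106SRDX against WT, 2 were higher and 1 lower with quantile normalization and with normexp, but 3 higher and 0 lower under median scaling. Of all 20267 tested loci, 5188 were higher and 5320 lower with quantile normalization, and 5048 and 4770 with normexp. Under median scaling 9892 were higher and 3141 lower, so the calls of all loci shifted too. ATMG00300 was among the higher mitochondrial loci in each of these settings. The causes were not tested.

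Replicate numbers did not pair the arrays: deviations of same-numbered arrays correlated between -0.16 and 0.20. With the replicate number as a block, 1 mitochondrial locus passed in MYB106SRDX against WT and 0 in WIN1SRDX against WT, since ATMG00580 was at -0.88 (limma, adjusted p = 0.0593) and -1.01 (adjusted p = 0.0569), and ATMG00300 passed in MYB106SRDX against WIN1SRDX (1.24, adjusted p = 0.0406).

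The planned background correction from mean spot signals was not run, and normexp on median spot signals, chosen after seeing the data, took its place. With it ATMG00285 passed in MYB106SRDX against WT and ATMG00300 in MYB106SRDX against WIN1SRDX, while ATMG00300 in MYB106SRDX against WT was 0.82, and ATMG00285 was 0.73 in MYB106SRDX against WIN1SRDX and -0.23 in WIN1SRDX against WT. Signal over background limits ATMG00300.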
